A study of Blastobotrys raffinosifermentans with 8 samples.

Results

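ARAD1C03498g, ARAD1C08558g and ARAD1C08580g are 3 genes of the yeast Blastobotrys raffinosifermentans that the study listed as possible hydroxylases of protocatechuic acid. The study searched these arrays for genes that protocatechuic acid raised strongly and that were annotated or described as hydroxylases. Here the genes were taken by identifier, and are 3 of the 6160 identifiers on the array, all 3 among the 6036 that were tested. All 3 carry the letter C of chromosome Arad1C in their names and none the letter A, and ARAD1C08558g and ARAD1C08580g follow each other by locus number, with 0 identifiers between them on the array. Their positions in the genome were not used here, and the gene names in the files are identifiers alone. Because the study chose its candidates partly on these arrays, no count over them is independent evidence of a response.

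The cells were the wild-type strain LS3, grown overnight with glucose and then moved to 1 of 2 media. One held 1% glucose and 0.5% protocatechuic acid, the other 1% glucose alone, and both had nitrate as the nitrogen source. Samples were taken at 15 and 30 min and at 2 and 5 h of shaking at 30°C, and each of the 8 RNA samples was hybridised to 1 single-colour array of 60-base probes. There were no replicate arrays, and the sources used here do not state if the 4 samples of each medium were drawn from 1 flask. On the slide, the arrays of each medium form a row of their own, and the effects of medium and row cannot be told apart.

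Protocatechuic acid is an aromatic acid formed in the breakdown of lignin and other plant aromatics, and many fungi use it as a carbon source. It can lose its carboxyl group without oxidation, which gives catechol, the substrate of catechol dioxygenases that open the aromatic ring. It can also be hydroxylated and decarboxylated in 1 step to hydroxyquinol by flavin-dependent monooxygenases, as is known for 4-hydroxybenzoate 1-hydroxylase of Candida parapsilosis and for a protocatechuate hydroxylase of Aspergillus niger. The enzymatic role proposed for the 3 genes in B. raffinosifermentans rests on annotation. Of the 3, the study's sequence search with the A. niger hydroxylase named ARAD1C08558g alone as a hit.

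Across the arrays, 58.9% to 70.2% of the yeast spots carried the scanner software's mark for a signal well above background, the median intensity of a spot was 71.5 to 96 and that of the local background 28 to 33. No spot was saturated. For the 7 spike-in controls, RNAs added to every sample, the median log2 difference between the media (protocatechuic acid minus glucose) was -0.06, -0.04, -0.14 and 0.43 along the times, and at 5 h they ranged between 0.14 and 0.60. Levels below are log2 normalised intensities, each gene is given by the median of its probes, and an SD over probes describes the probes of 1 pair of arrays, not replicate cultures. Levels of different probes or genes are not on a common scale and were not set against each other.

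The 3 candidates differed in what could be read of their courses. ARAD1C03498g was 2.44-fold higher with protocatechuic acid than with glucose after 15 min and within 0.18 of the glucose level on the log2 scale at each later time. ARAD1C08558g had 1 of its 10 probes above background on all arrays, and on that probe the media were at most 0.17 apart up to 2 h and 0.54 apart at 5 h on the log2 scale. ARAD1C08580g lay near the detection limit, with its highest value at 30 min in both media. The gene values of these last 2 did not show the strong increase that the study named as a criterion. Their log2 differences between the media were -0.10 to 0.03 for ARAD1C08558g and 0.03 to 0.15 for ARAD1C08580g, both close to background. With 1 array per medium and time, a single difference was called by size, when the log2 difference was at least 1. At 15 min 1 of the 3 genes passed this limit upwards, against 3.51% of all genes tested, and at 30 min, 2 h and 5 h 0 of the 3 did, against 1.23%, 0.961% and 0.348% of all genes tested.

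**Figure D1:**
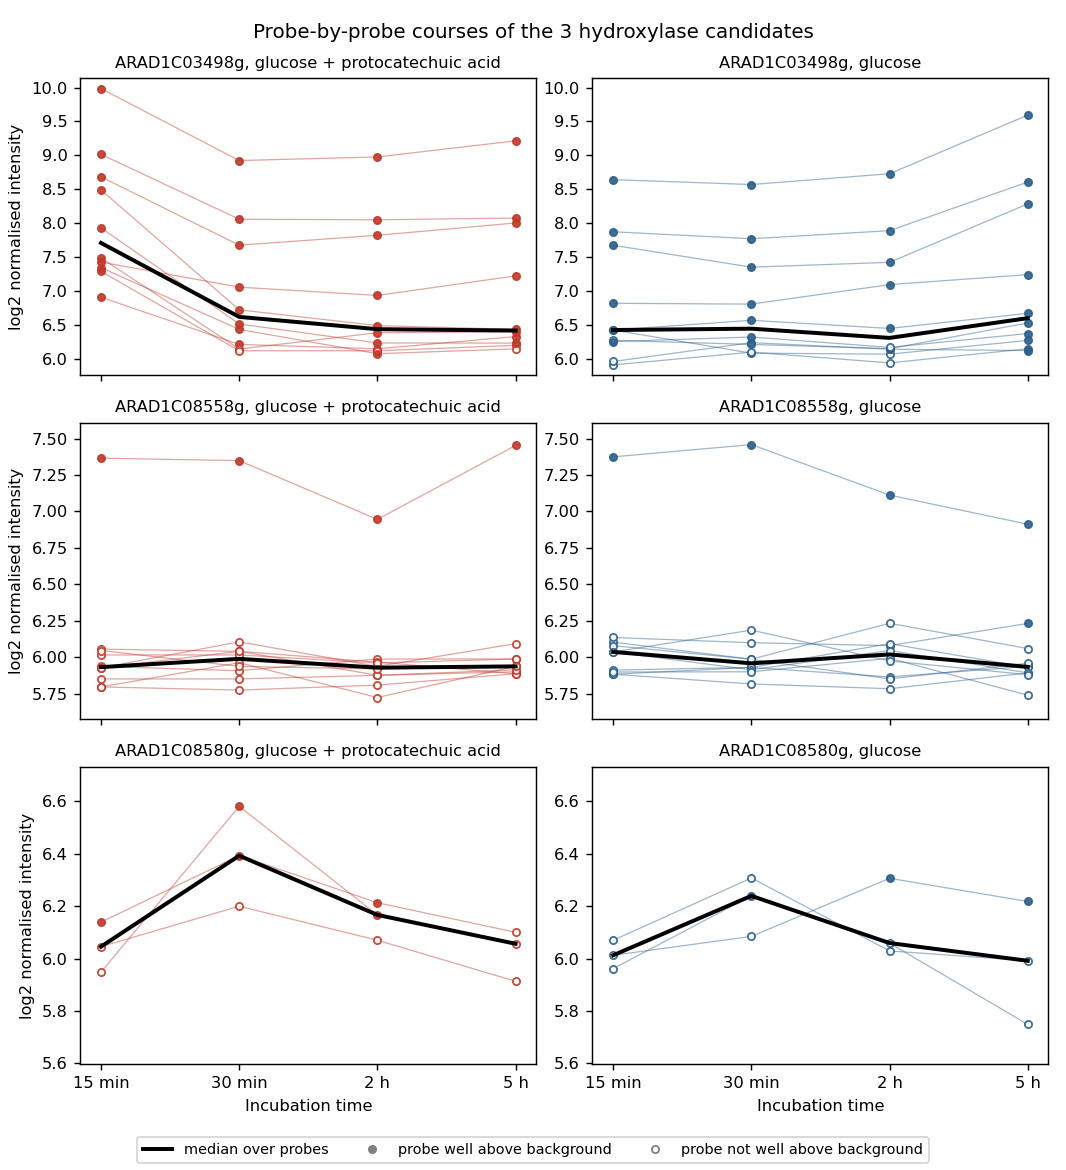
Log2 normalised intensity (y axis) against incubation time (x axis) for each probe of the 3 genes, in glucose with protocatechuic acid on the left and in glucose on the right; thin lines are probes, filled points are well above background, open points are not, and the black line is the median over the probes. The median of ARAD1C03498g stands at 7.71 after 15 min with protocatechuic acid and between 6.31 and 6.62 on the other 7 arrays, while 8 of the 10 probes of ARAD1C08558g are open on every array.

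ARAD1C03498g had the only large difference among the 3. Its level was 7.71, 6.62, 6.44 and 6.42 along the 4 times with protocatechuic acid, against 6.43, 6.45, 6.31 and 6.60 with glucose. The first protocatechuic acid sample was the highest of the 8 by 1.09. The other 7 lay between 6.31 and 6.62, and neighbours in their order were at most 0.16 apart. The residual SD of the fit of medium and time, 0.37, includes the large 15 min difference and does not measure the spread among these 7. Without replicate arrays their order cannot be read. Among the 10 probes of the gene, those well above background numbered 10, 8, 8 and 8 along the times with protocatechuic acid and 7, 8, 6 and 10 with glucose.

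The log2 difference of ARAD1C03498g at 15 min was 1.28 ± 0.47 (SD over 10 probes). It ranked 136 of the 6036 genes tested, with 97.8% of them below it. All 10 probes were higher with protocatechuic acid, by 0.48 to 2.07, and 8 of them by at least 1. Of the 4665 genes tested with 10 or more probes, 11.2% also had every probe higher at this time. All 7 probes that were well above background on both 15 min arrays were higher. The median of their 7 differences was 1.14, and the difference between their medians, the measure used for the gene, was 1.67.

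At the later times the difference was within the spread of the probes or little beyond it. After 30 min it was 0.17 ± 0.13, after 2 h 0.13 ± 0.16 and after 5 h -0.18 ± 0.20 (SD over 10 probes). Of the 10 probes, 9, 8 and 3 were higher with protocatechuic acid at these times. At 5 h the spike-in controls differed in the opposite direction to this gene, as given above, and their part in its value was not tested.

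The 10 probes start between bases 28 and 1099 of the gene, and their 15 min difference varied along it. Reading from the first to the last probe, the log2 difference was 0.61, 1.14, 1.01, 1.34, 0.48, 1.22, 1.38, 1.38, 1.68 and 2.07. The smallest value belongs to the probe starting at base 673 and the greatest to the last probe, at base 1099. For the last probe the normalised level with protocatechuic acid was 8.49, 6.72, 6.49 and 6.43 along the 4 times, and with glucose 6.43, 6.57, 6.45 and 6.67. As read by the scanner, its spot had a median intensity of 390, 95, 103 and 86 with protocatechuic acid and of 74, 73, 85 and 114 with glucose, and it was well above background on all 8 arrays. The 15 min protocatechuic acid value is thus separate from the 7 others before normalisation as well.

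The probe starting at base 613, also well above background on all 8 arrays, had another course. Its level was 9.98, 8.92, 8.98 and 9.21 along the times with protocatechuic acid, and 8.64, 8.57, 8.73 and 9.59 with glucose. Its scanner intensities were 986, 403, 626.5 and 587 with protocatechuic acid and 396.5, 281, 417.5 and 974.5 with glucose. On this probe the glucose sample of 5 h came close to the protocatechuic acid sample of 15 min, which was not so for the last probe.

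The neighbouring probes at bases 457 and 517 shared this higher 5 h value in glucose. The probe at base 457 read 9.02, 8.06, 8.05 and 8.08 with protocatechuic acid and 7.87, 7.77, 7.89 and 8.61 with glucose. At base 517 the probe read 8.68, 7.68, 7.82 and 8.00 with protocatechuic acid and 7.68, 7.35, 7.42 and 8.28 with glucose. For the 3 probes at bases 457, 517 and 613 the step between 2 h and 5 h in glucose was 0.72, 0.86 and 0.86, and for the other 7 it lay between -0.02 and 0.38. This grouping of probes was made after their values were seen and has no test.

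Within the protocatechuic acid samples, the step between 15 and 30 min was -1.09 ± 0.39 for the gene (SD over 10 probes), with 0 of 10 probes higher at 30 min. By probe it lay between -0.37, at base 28, and -1.77, at base 1099. Of all genes tested, 5.68% had a more negative step. Within the glucose samples the same step was 0.02 ± 0.20, with 4 of 10 probes higher, and the step between 2 and 5 h was 0.29 ± 0.32, with 9 of 10 higher. By the gene median, the course with protocatechuic acid was therefore a high first value followed by lower ones, and the course with glucose was flat to 2 h. After 30 min the probes with protocatechuic acid did not move together. Between 30 min and 5 h the step was -0.20 ± 0.24 for the gene (SD over 10 probes), yet 7 of 10 probes were higher at 5 h.

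**Figure D2:**
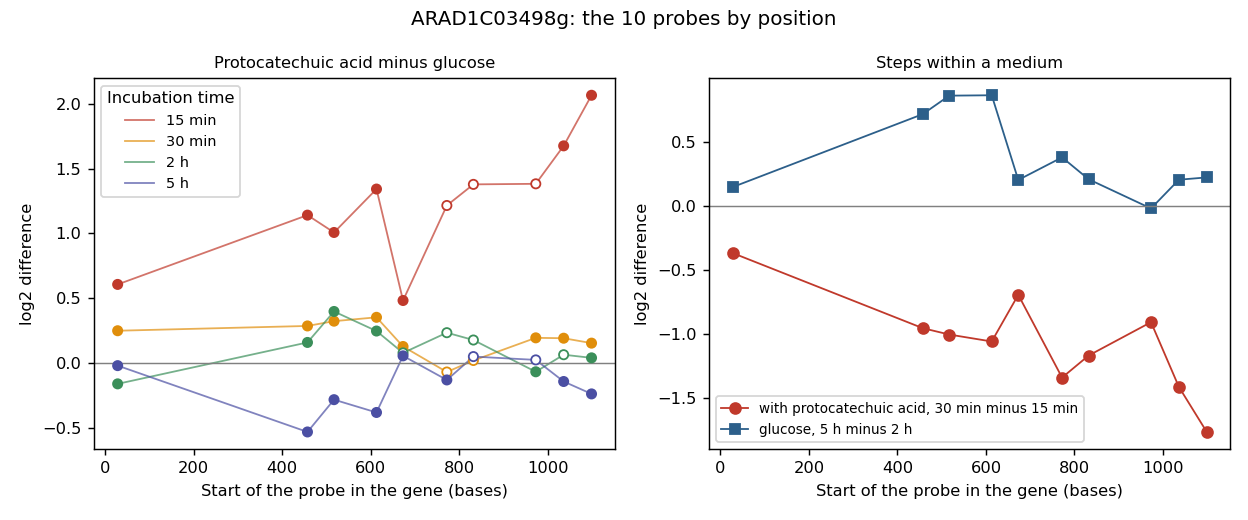
The 10 probes of ARAD1C03498g by their start in the gene in bases (x axis), with log2 differences on the y axes. On the left is protocatechuic acid minus glucose at each time (filled where the probe was well above background on both arrays), on the right 30 min minus 15 min with protocatechuic acid (circles) and 5 h minus 2 h with glucose (squares). The 15 min line runs between 0.48 and 2.07 and stays above the lines of the later times at every probe, and the glucose step reaches 0.72 to 0.86 at 3 adjacent probes only.

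Over all 4 times the mean log2 difference of ARAD1C03498g was 0.35 (standard error 0.26, 95% interval -0.33 to 1.03), higher with protocatechuic acid at 3 of 4 times. It did not pass the test of the medium (limma with time as a block, Benjamini-Hochberg adjusted p = 0.867, Bonferroni adjusted p = 1). An exact two-sided sign-flip permutation test of the 4 differences gave p = 0.5, where the smallest value possible is 0.125. Without the 15 min arrays the mean was 0.04, and without the 5 h arrays it was 0.53.

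The 15 min difference of this gene was then set against the mean of its 3 later differences, a comparison added after the values had been seen. The later differences had a mean of 0.04 and ranged between -0.18 and 0.17, and the 15 min value exceeded that mean by 1.24 (standard error 0.19, limma with 2 residual degrees of freedom). After Benjamini-Hochberg adjustment over all genes the adjusted p = 0.0809, and after Bonferroni adjustment it was 1, so that the contrast passed neither. It was passed by 134 genes after Benjamini-Hochberg adjustment, 2.22% of those tested, and by 0 of the 3 candidates, with 958 genes at an unadjusted p under 0.05. For ARAD1C08558g this contrast was -0.09 (standard error 0.11) and for ARAD1C08580g -0.08 (standard error 0.10).

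ARAD1C08558g is the candidate for which detection sets the limit. Its gene level was 5.93, 5.99, 5.93 and 5.94 along the times with protocatechuic acid, against 6.04, 5.96, 6.02 and 5.93 with glucose. These medians come from probes that were not well above background, since 8 of the 10 probes had that mark on none of the 8 arrays. The probe at base 411 had it on 1 array, glucose at 5 h, and the probe at base 1067 on all 8. Of the 4766 identifiers with 10 probes, tested or not, 713 (15%) likewise had exactly 1 probe above background on all 8 arrays, 1098 (23%) had none and 748 (15.7%) had all 10.

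The probe at base 1067, which the array carries on a pair of spots, is the only one of ARAD1C08558g above background on all 8 arrays. Its neighbours on both sides were not well above background on any array. Whether its signal comes from the transcript of this gene was not tested. It read 7.37, 7.35, 6.95 and 7.45 with protocatechuic acid and 7.37, 7.46, 7.11 and 6.91 with glucose. Its mean scanner intensity over both spots was 180.5, 145, 145.75 and 175.25 with protocatechuic acid and 158.5, 139.5, 140.25 and 138.5 with glucose. The groups overlap, and the log2 differences at the 4 times were -0.01, -0.11, -0.17 and 0.54. The value of 0.54 at 5 h lies inside the range of the spike-in controls at that time, 0.14 to 0.60, and their part in it was not tested. The controls were normalised together with all spots, and the genes on the yeast spots alone.

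The adjacent probes of ARAD1C08558g at bases 1005 and 1127, on either side of the bright one, were not well above background on any array and lay between 5.74 and 6.19. They give no course, and they set no bound on the transcript, since levels of different probes are not on a common scale. The gene's log2 difference by the median over probes was -0.10 ± 0.08, 0.03 ± 0.12, -0.09 ± 0.14 and 0.00 ± 0.19 along the times (SD over 10 probes), and no probe differed by 1 or more at any time. The mean over the times was -0.04 (standard error 0.05, 95% interval -0.17 to 0.09, limma adjusted p = 0.881), higher with protocatechuic acid at 2 of 4 times, and the exact sign-flip permutation test gave p = 0.5. By the bright probe alone the mean was 0.06, with the opposite sign, and neither value passed a test.

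ARAD1C08580g, the neighbour of ARAD1C08558g, is covered by 3 probes, starting at bases 15, 127 and 199. Its level was 6.05, 6.39, 6.17 and 6.06 along the times with protocatechuic acid and 6.01, 6.24, 6.06 and 5.99 with glucose. The number of its probes well above background was 1, 2, 2 and 0 with protocatechuic acid and 0, 1, 1 and 1 with glucose. On the 8 arrays the dimmest probe with that mark had a value between 5.77 and 5.999, close to the values of this gene, so that at 15 min and 5 h, where the gene was not above background in 1 of the media, a difference has only a value at background on one side.

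The highest of the 4 values was that of 30 min in both media. The probe at base 199 read 5.95, 6.58, 6.17 and 6.06 with protocatechuic acid and 5.96, 6.24, 6.06 and 5.75 with glucose, and was well above background at 30 min and 2 h with protocatechuic acid and at 30 min with glucose. At base 127 the probe read 6.14, 6.39, 6.21 and 6.10 with protocatechuic acid and 6.01, 6.08, 6.31 and 6.22 with glucose, and was above background up to 2 h with protocatechuic acid and at 2 h and 5 h with glucose. At base 15 it read 6.05, 6.20, 6.07 and 5.91 with protocatechuic acid and 6.07, 6.31, 6.03 and 5.99 with glucose, never well above background. In each medium 3 of the 3 probes were higher at 30 min than at 15 min, although with glucose the probe at base 127 was highest at 2 h.

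Averaged over both media, ARAD1C08580g was 0.29 higher at 30 min than at 15 min (standard error 0.07, limma, Benjamini-Hochberg adjusted p = 0.0675), so that the step did not pass the adjustment. This step was called upwards in 358 genes, 5.93% of those tested, and in 0 of the 3 candidates. Between 30 min and 2 h the step was -0.20 (adjusted p = 0.227). The F test over the 4 times in limma gave an adjusted p of 0.101 for this gene, 0.498 for ARAD1C03498g and 0.933 for ARAD1C08558g. By that test Bonferroni adjustment called 11 genes (0.182%), Benjamini-Hochberg adjustment called 722 (12%), and 0 of the 3 candidates passed either. At an unadjusted p under 0.05 there were 2063. The additive fit behind these values takes the course to be alike in both media, which the values of ARAD1C03498g do not follow.

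Between the media ARAD1C08580g differed by 0.03 ± 0.08, 0.15 ± 0.25, 0.11 ± 0.10 and 0.06 ± 0.24 along the times (SD over 3 probes, protocatechuic acid minus glucose). Of the 3 probes, 1, 2, 2 and 1 were higher with protocatechuic acid. No direction can be read at 5 h, where no probe was well above background with protocatechuic acid, or at 15 min, where none was with glucose, and the sign turned in 2 of 8 alternatives at 15 min, 3 of 9 at 2 h and 2 of 8 at 5 h. The mean of the 4 differences, these included, was 0.09 (standard error 0.05, 95% interval -0.04 to 0.22, limma adjusted p = 0.867). The upper end of the interval bounds the mean difference on this compressed scale near background, not the change of the transcript.

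**Figure D3:**
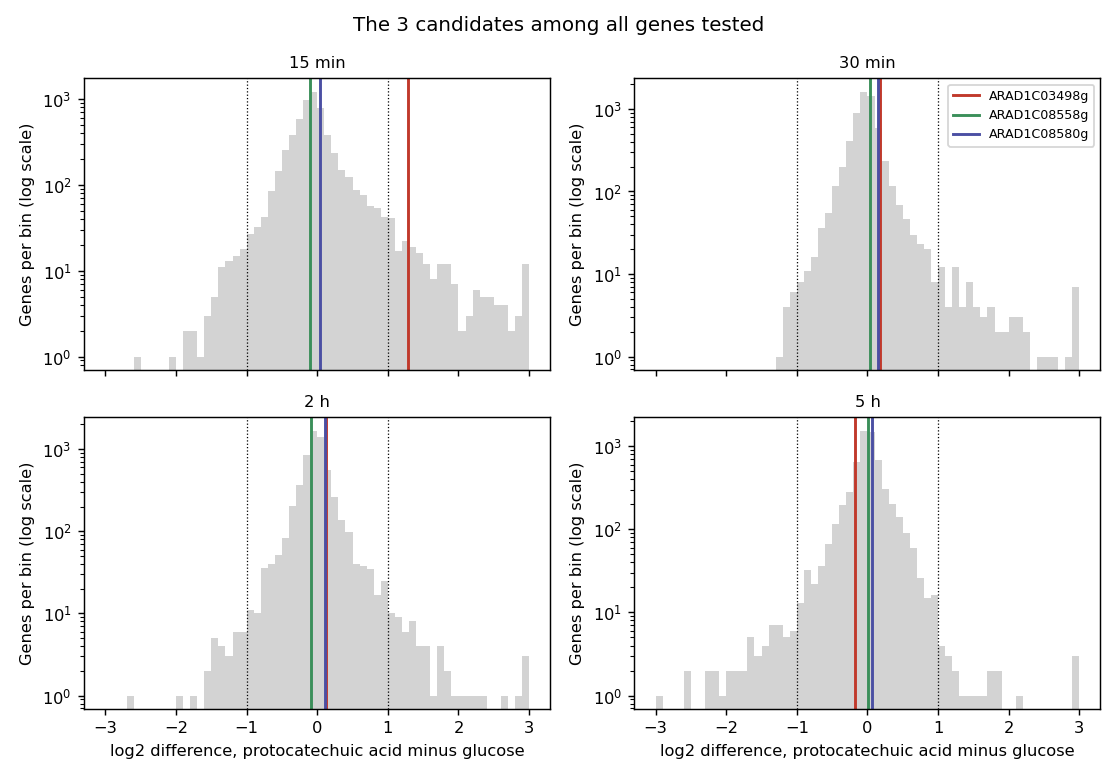
Distribution of the log2 difference, protocatechuic acid minus glucose (x axis), over the 6036 genes tested at each time, as genes per bin on a log scale (y axis), with values beyond the axis placed in the outermost bins. Coloured lines mark the 3 candidates and dotted lines a difference of 1 in either direction. ARAD1C03498g lies past the upper dotted line at 15 min, with 97.8% of genes below it, and inside the bulk at the later times, where its line at 2 h (0.13) is nearly covered by that of ARAD1C08580g (0.11).

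Across all genes, the test of the medium called 0 of 6036 after Bonferroni and 0 after Benjamini-Hochberg adjustment in limma (0% in each case), 303 had an unadjusted p under 0.05, and the smallest adjusted p was 0.28. A mean difference that varies over time as that of ARAD1C03498g does has a wide interval in this test. The median difference over all genes tested was -0.06, -0.02, -0.02 and 0.00 along the times.

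A further 5 hydroxylase genes named in the study, all of them tested, had a median log2 difference of -0.12, -0.07, 0.00 and 0.24 along the times. Beside further array candidates they hold 1 gene found by a sequence search and 1 phenol hydroxylase that the study proposes to act on catechol. Their median is therefore not that of the array candidates alone. The number of the 5 at 1 or more was 0, 1, 1 and 0 at these times. It was ARAD1C00330g, named here after its values were seen, with 1.79 at 30 min and 1.59 at 2 h. That gene had 10 probes above background at both times with protocatechuic acid and 0 with glucose. At 15 min its difference was 0.83, with 10 and 0 probes above background, so that all these values are set against background in glucose. None of the 5 passed the test of the medium.

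The genes next to the candidates by number were given as ranges. Of the 4 nearest on each side of ARAD1C03498g, the 15 min differences ranged between -0.66 and 0.07, and 0 of 8 reached 1. At 30 min and 5 h 1 of these 8 did, ARAD1C03586g, with 1.77 and 1.18. Around the pair, the 8 neighbours ranged between -0.31 and 1.06 at 15 min and 1 reached 1, ARAD1C08514g with 1.06. Both identifiers were singled out after their values were seen. At the later times the neighbours of the pair stayed between -0.39 and 0.51.

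The gene whose levels followed those of ARAD1C03498g most closely over the 8 arrays was ARAD1C43736g, with a Pearson r of 0.995 among 5990 genes compared. It read 8.34, 6.93, 6.70 and 6.70 with protocatechuic acid and 6.77, 6.81, 6.66 and 6.86 with glucose, with all 10 probes well above background on each array. Such likeness was not confined to that gene, since 261 of the 5990 genes compared reached an r of 0.9. For ARAD1C08580g the closest was ARAD1C45496g, with r = 0.992, and 83 genes reached 0.9. It read 6.44, 6.89, 6.57 and 6.44 with protocatechuic acid and 6.34, 6.71, 6.39 and 6.35 with glucose, highest at 30 min in both. For ARAD1C08558g, whose medians lie at the background, it was ARAD1C15004g with r = 0.918, and 2 genes reached 0.9. These correlations share the same 8 arrays and their normalisation, and for ARAD1C03498g the value rests on the one high array.

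The gene levels of the 3 candidates were also set against each other. Over the 8 arrays the Pearson r was -0.39 between ARAD1C03498g and ARAD1C08558g, -0.13 between ARAD1C03498g and ARAD1C08580g, and 0.03 between the neighbours ARAD1C08558g and ARAD1C08580g. ARAD1C08558g had only 1 probe above background on all arrays, and ARAD1C08580g lay near the detection limit. Each of the 3 values therefore involves background as much as transcript, and none shows that the courses of the transcripts differ.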

How the data were processed

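RNA of 8 samples was hybridised to 1-colour Agilent arrays. Per the file headers, Feature Extraction 11.5.1.1 wrote the deposited intensity values (median of the spot, median of the background around it), a processed signal and the marks for detection, saturation and outliers. The authors' deposited table is on the log2 scale. It differed by at most 0.0478 from normexp with an offset of 16 and quantile normalisation of all spots, which settles its scale and shows no centring. The column medians were 5.66 to 5.67. Its values served as an alternative, and 0 columns of per-sample values were left unused.

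The background was corrected by normexp (limma 3.58.1, R 4.3.3, offset 50) on all spots. Control spots and 0 to 7 outlier spots per array were left out, and the values were quantile normalised, put on the log2 scale, averaged over the spots of a probe and taken as the median over the probes of a gene. The number that closes the name of a probe was taken for its first base. A gene was tested when 1 or more of its probes passed the detection mark on 2 or more arrays. Medium was fitted with time as a block (3 residual and 1.73 prior degrees of freedom) and time with medium as a block, by lmFit and eBayes, with Bonferroni adjustment as in the methods of the study and Benjamini-Hochberg adjustment beside it. The fits were tested on simulated data. With 1 array per medium and time, the p-values of these fits rest on how the difference between the media varied over the times. They do not measure the spread of cultures, and precision is limited by the number of arrays.

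Named genes are the 3 candidates, the gene most alike to each (Pearson r, genes with at least 3 probes) and those said to be named after their values were seen. The members and lists were chosen with earlier results of these data known. Alternatives were an offset of 0 or 16, the processed signal minus its 75th percentile, median scaling, the authors' table, other summaries and filters of probes, no block, trend and robust estimation, and each time left out. Plots were made in Python 3.11.15 (matplotlib 3.10.9).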

Additional observations from a re-analysis of the deposited data

Results flagged for a closer look

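For ARAD1C03498g the difference between the media at 15 min was set against the later ones, a contrast chosen after the values were seen, which did not pass adjustment. The 15 min log2 difference exceeded the mean of the 3 later ones by 1.24. Its 15 min side is 1 value, so the gene's own spread in the fit comes from the 3 later differences. That spread was moderated by limma over all genes, and only the size is given. The 15 min difference was positive in 10 of 10 probes on 1 pair of arrays. The excess over the later mean was also obtained with an offset of 0 or 16, the processed signal, median scaling and the authors' table. With these it was 1.36 to 2.24.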

How the results depend on the processing

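The 15 min difference of ARAD1C03498g was positive under each of the 10 alternatives, between 1.01 and 2.37. It was 1.75 with an offset of 16, 1.76 in the authors' table, 2.15 at offset 0 and 2.37 on the processed signal, settings that also move the 15 min median of all genes to between -0.31 and -0.12. Its mean over the times was 0.04 to 0.53 with 1 time left out. The test of the medium called 2 genes at offset 0 and 2 on the processed signal, in place of 0, none of them a candidate. The F test over the times called 19 genes at offset 0, 6 on the processed signal, 24 when each probe used had to be detected on all 8 arrays, 722 by Benjamini-Hochberg adjustment, and 0 to 2 with 1 time left out, in place of 11. For ARAD1C08558g the mean turned to 0.0637 with the brightest probe and when probes had to be detected on 4 or on all 8 arrays, where the same probe is left. Its step between 15 and 30 min turned to 0.0930 with median scaling, 0.00647 with the mean over probes and 0.0335 with those 3 choices of probes. The cause of the other shifts was not tested. ARAD1C08580g has no probe well above background on all 8 arrays, so that this setting gave no value. Its 30 min step kept its sign under 13 alternatives, between 0.16 and 1.87. The arrays have no replicate numbers and were paired by time, and without the time block none of the 3 candidates was called either. For ARAD1C08558g and ARAD1C08580g, most of whose probes were not well above background, signal over background limits what a difference can show.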
